A study of Homo sapiens with 14 samples.

Results

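Binding of KLF4 was examined at 9 genes that encode transcription factors of airway and other epithelia, namely TP63, GRHL1, GRHL2, ELF3, EHF, OVOL1, NKX2-1, FOXA1 and FOXA2. They were chosen by name out of 20033 protein-coding genes on the autosomes, X and Y. A KLF4 peak was assigned to a gene when its summit, the base of highest signal, lay between 10 kb upstream of the gene's first annotated base and 2 kb past its last. The peaks came from ChIP-seq of BEAS-2B, a virus-immortalised line of human bronchial epithelial cells, in 4 conditions. These were WT control, which are cells with Nrf2 and without As3+, WT As3+, which are the same cells after 1 µM trivalent arsenic for 6 h, Nrf2 KO control, which lack Nrf2 and received no As3+, and Nrf2 KO As3+, which lack Nrf2 and received the same dose for the same time. The Nrf2 KO cells were made by CRISPR-Cas9 cutting in exon 2 and were picked as colonies without detectable Nrf2 protein, and which colony gave the chromatin is not given in the sources used here, so a property of 1 clone and the loss of Nrf2 cannot be told apart. By the same methods, colonies that still made Nrf2 were designated WT. KLF4 was profiled in 1 library per condition. No difference between conditions has a replicate check, none was tested, and no p-value is given. The lists hold binding sites and no RNA, so neither the epithelial identity of the cells nor the expression of these factors could be checked from them.

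KLF4 is a zinc finger transcription factor of the Krüppel-like family that binds CACCC-type and other GC-rich DNA and is known for its role in epithelial differentiation and in pluripotency. The 9 factors act at different levels of the epithelial programme. TP63 maintains basal stem cells of stratified and airway epithelium, the grainyhead-like factors GRHL1 and GRHL2 control cell junction genes, ELF3 and EHF are ETS factors restricted to epithelia, and OVOL1 is a zinc finger repressor that opposes mesenchymal gene expression. NKX2-1 specifies the lung lineage, and FOXA1 and FOXA2 are forkhead factors that open chromatin in endoderm-derived epithelia. Nrf2 is the stress-activated factor that drives antioxidant genes, and trivalent arsenic is among the agents known to activate it.

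The DNA under the summit of the strongest KLF4 peak of WT As3+, or of Nrf2 KO control where WT As3+ had none, is given here for 4 genes in which it lies outside annotated UTRs, so that the base composition and the presence or absence of a KLF4-type word can be read directly. Each run has 120 bases, is written 5′ to 3′ on the strand of the gene, and is reference sequence of GRCh38. Capitals mark GGGTG, which is the short KLF core CACCC read on the other strand. The peaks of TP63, GRHL1 and OVOL1 are from the WT As3+ list and that of FOXA2 is from the Nrf2 KO control list, since this gene had no peak in WT As3+.
TP63, chr3:189834154-189834273, plus strand: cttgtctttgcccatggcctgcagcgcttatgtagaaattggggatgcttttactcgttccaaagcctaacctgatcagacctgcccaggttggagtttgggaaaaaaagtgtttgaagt
GRHL1, chr2:9950798-9950917, plus strand: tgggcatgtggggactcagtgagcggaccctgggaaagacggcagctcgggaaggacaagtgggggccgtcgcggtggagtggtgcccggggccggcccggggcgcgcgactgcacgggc
OVOL1, chr11:65792092-65792211, plus strand: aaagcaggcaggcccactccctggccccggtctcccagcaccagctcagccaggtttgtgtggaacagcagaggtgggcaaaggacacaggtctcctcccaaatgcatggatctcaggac
FOXA2, chr20:22587070-22587189, minus strand: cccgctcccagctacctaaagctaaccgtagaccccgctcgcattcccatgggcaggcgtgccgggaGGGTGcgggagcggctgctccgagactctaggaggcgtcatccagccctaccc

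Only FOXA2 carried the short core in these 4 runs, with 1 copy. The TP63 run was the poorest in G and C at 46.7%, against 60.8% in OVOL1, 67.5% in FOXA2 and 74.2% in GRHL1. Longer words of known factors were rare at the peaks of the 9 genes. The stretches of 30 bases that hold one are given next because they are the only windows of these peaks with an AP-1 word (TGACTCA) in ELF3 or a full KLF word (CCACACCC or CCACGCCC) in any of the genes, with the word in capitals and the run on the plus strand of GRCh38.
ELF3, WT As3+ peak, AP-1 word, chr1:202010178-202010207: cagcagctttcTGACTCAggtcagccaggg
ELF3, Nrf2 KO control peak, KLF word, chr1:202002306-202002335: ggcacgcgccaCCACGCCCggctattttgt
ELF3, Nrf2 KO control peak, KLF word, chr1:202006881-202006910: aaaaaaaagctGGGCGTGGtggtgcattcc
OVOL1, Nrf2 KO control peak, KLF word, chr11:65793249-65793278: tgtctgcctcgGGGCGTGGctgcatccaag

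The AP-1 word of ELF3 lay 53 bp before the summit, and the KLF word of OVOL1 lay 9 bp before it. The middle 20 bases of both stretches had 1 copy in the genome. In contrast, the middle 20 bases of the ELF3 stretches with a KLF word had 28 and 16 exact copies.

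The 4 lists differed widely in length, with 751 peaks in WT control, 29870 in WT As3+, 76545 in Nrf2 KO control and 130 in Nrf2 KO As3+. The number of fragments over a summit, worked out from the listed fold enrichment and p, had a median between 7 and 25 in the 4 lists, and the lowest local background ran from 0.491 fragments in Nrf2 KO control to 1.9 in WT control. A peak in the lists with a low background could therefore rest on as few as 4 or 5 fragments, whereas the fewest in either of the short lists was 10. Total reads per library were not used here. In Nrf2 KO cells the longer list is that of the control and in WT cells that of As3+, and an effect of the condition, unequal enrichment by the antibody and an exchanged label cannot be told apart with 1 library each, which holds for every Nrf2 KO value that follows.

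KLF4 peaks were listed at 6 of the 9 genes in WT As3+ and at 7 of 9 in Nrf2 KO control, and at 0 of 9 in both WT control and Nrf2 KO As3+. In WT As3+ the genes were TP63, GRHL1, GRHL2, ELF3, OVOL1 and FOXA1, which is 66.7% of the 9 beside 66.5% of all protein-coding genes by the same windows. In Nrf2 KO control they were GRHL1, GRHL2, ELF3, OVOL1, NKX2-1, FOXA1 and FOXA2, which is 77.8% beside 81.0%. The background was 2.51% of protein-coding genes in WT control and 0.439% in Nrf2 KO As3+, where 0 of the 9 genes had one. In all 4 lists the share of the 9 genes was thus near that of genes at large.

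**Figure D1:**
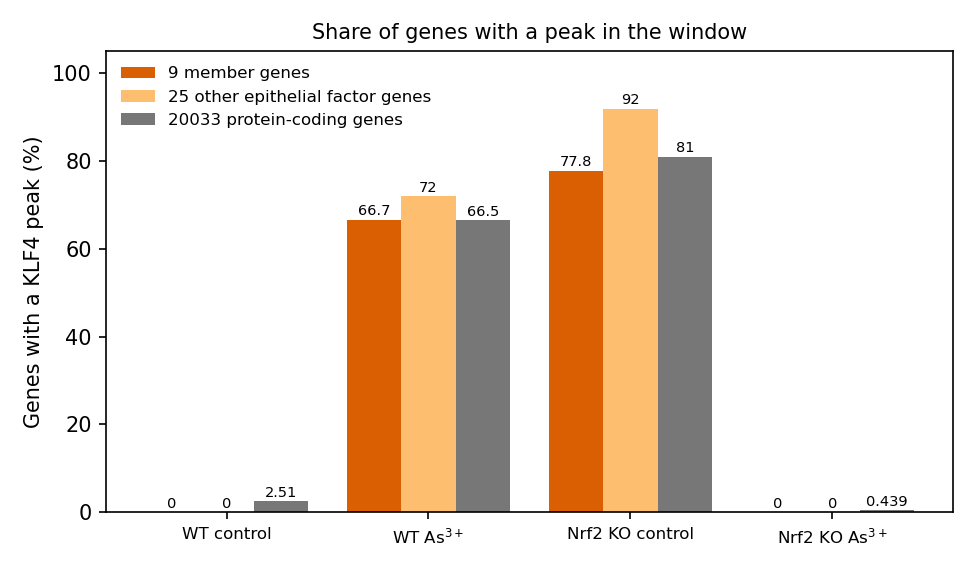
Bars give the percent of genes with at least 1 KLF4 peak in the window (y axis) in each of the 4 libraries (x axis), for the 9 epithelial factor genes, for 25 other epithelial factor genes and for 20033 protein-coding genes. The 9 genes reached 66.7% in WT As3+ and 77.8% in Nrf2 KO control, beside 66.5% and 81.0% of protein-coding genes.

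Arsenic treatment went with listed peaks in WT cells and with their absence in Nrf2 KO cells. A peak in WT As3+ and none in WT control was found for 6 of 9 genes, beside 64.0% of protein-coding genes. A peak in Nrf2 KO control and none in Nrf2 KO As3+ was found for 7 of 9, beside 80.6%. GRHL1, GRHL2, ELF3, OVOL1 and FOXA1 had peaks in both WT As3+ and Nrf2 KO control, 5 of 9 genes beside a background of 64.0%. NKX2-1 and FOXA2 had peaks in Nrf2 KO control and none in WT As3+, 2 of 9 beside 17.0%. TP63 alone had a peak in WT As3+ and none in Nrf2 KO control, 1 of 9 beside 2.50%, and EHF had none in any library, 1 of 9 beside 16.5%.

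The windows of the 9 genes span 679 kb and held 16 peaks in WT As3+ and 38 in Nrf2 KO control. Pooled over the windows this was 2.36 and 5.6 peaks per 100 kb, against 1.93 and 4.5 over the windows of all protein-coding genes. Among themselves the genes varied far more than this. OVOL1 and ELF3, with windows of 22.2 and 21.2 kb, held 9 of the 16 peaks in WT As3+ and 20 of the 38 in Nrf2 KO control, while TP63, which has the longest window at 278 kb, held 1 and 0. The median gene had 0.528 peaks per 100 kb in WT As3+, beside 1.71 for all protein-coding genes, and 17.9 in Nrf2 KO control, beside 4.24. The members' windows were shorter, with a median of 22.2 kb against 39.5 kb, so a single peak weighs more in such a density.

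**Figure D2:**
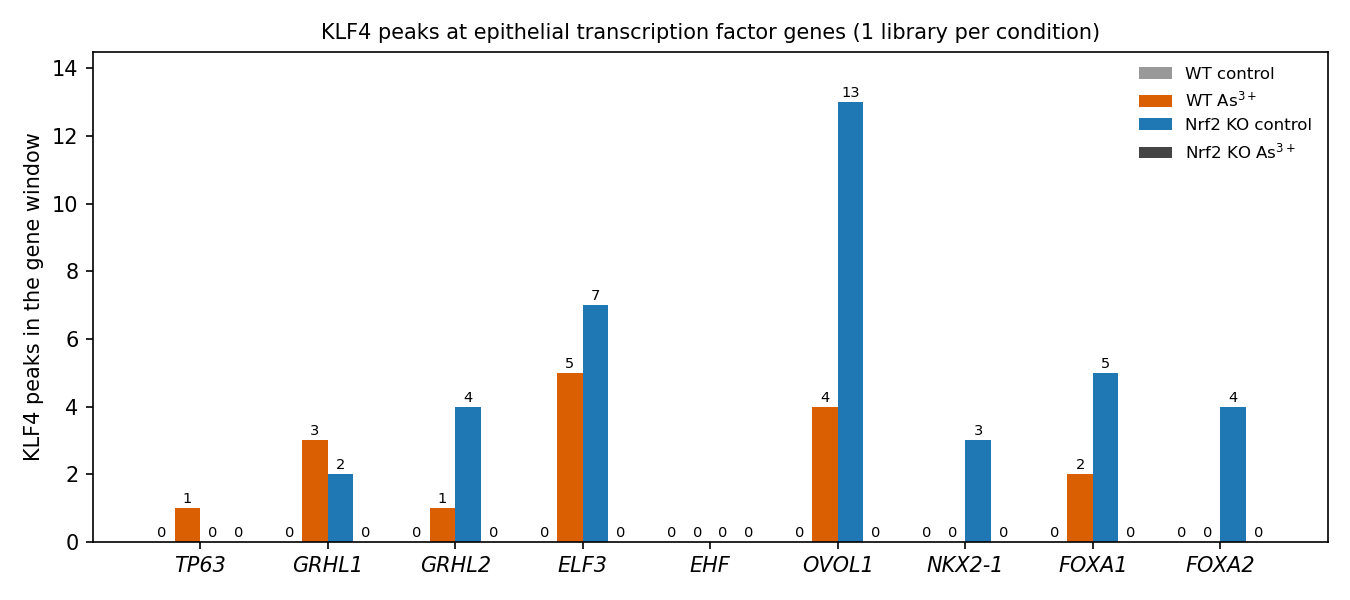
Bars give the number of KLF4 peaks (y axis) in the window of each of the 9 genes (x axis) in each of the 4 libraries, 1 library per condition, with the number written over each bar. OVOL1 had the most peaks, 13 in Nrf2 KO control, and every gene had 0 in WT control and in Nrf2 KO As3+.

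GRHL1 and GRHL2 encode grainyhead-like factors, and both had KLF4 peaks at their start sites in WT As3+ and in Nrf2 KO control. At both genes, starts of annotated genes that are not protein-coding also lay within 2 kb of these peaks. GRHL1 lies on chromosome 2 from 9951693 to 10002277 on the plus strand. It had 0 peaks in WT control, 3 in WT As3+, 2 in Nrf2 KO control and 0 in Nrf2 KO As3+. In WT As3+ the summits were 7616 bp and 835 bp upstream of the transcription start site (TSS) of the canonical transcript and, in intron 1, 527 bp past it, with folds of 4.33, 5.01 and 4.47. In Nrf2 KO control they were 877 bp and 34 bp upstream, with folds of 6.58 and 4.89. The peaks at 835 and 877 bp upstream overlapped over 429 bp, with summits 42 bp apart, and this is the site whose sequence is printed above. It rested on 10 fragments in WT As3+ (95% exact Poisson interval 4.8 to 18.4) and 11 in Nrf2 KO control (5.49 to 19.7). The backgrounds were 1.19 and 0.824. The intervals overlap widely, cover counting error only and leave out the unequal backgrounds.

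GRHL2 lies on chromosome 8 from 101492439 to 101669726 on the plus strand, and had 1 peak in WT As3+, 4 in Nrf2 KO control and 0 in the other libraries. The single WT As3+ peak, from 101492464 to 101492690, had its summit 166 bp past the TSS in the 5′ UTR of exon 1, with a fold of 5.88. A Nrf2 KO control peak had its summit 6 bp away with a fold of 4.18. They rested on 11 fragments (5.49 to 19.7) and 6 fragments (2.2 to 13.1), over backgrounds of 1.04 and 0.674. The intervals overlap but leave out the unequal backgrounds. The strongest GRHL2 peak of Nrf2 KO control was another one, 1324 bp past the TSS in intron 1, with a fold of 6.45 and 9 fragments. The remaining pair lay deep in the gene, in intron 3 at 65021 bp and in intron 12 at 151100 bp, with folds of 4.31 and 4.64. Both genes had a site near the TSS in WT As3+ and in Nrf2 KO control, and peaks far inside the gene body were listed for GRHL2 in Nrf2 KO control.

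ELF3, an ETS factor of differentiating epithelium, held the strongest KLF4 site of WT As3+ among the 9 genes. The gene lies on chromosome 1 from 202007945 to 202017183 on the plus strand, with the canonical TSS at 202010587. It had 0 peaks in WT control, 5 in WT As3+, 7 in Nrf2 KO control and 0 in Nrf2 KO As3+. Its highest WT As3+ peak, from 202008086 to 202008559, had a fold of 8.93 and a −log10 q of 19.2, and rested on 32 fragments (21.9 to 45.2) over a background of 2.7. The summit was 2320 bp upstream of the canonical TSS and 322 bp past the first annotated base of the gene. The peak ranked 871 of the 29870 in its list by fold, at percentile 97.1, and by its highest peak ELF3 ranked 858 of the 13314 protein-coding genes with one. In WT As3+, 6.57% of protein-coding genes had 5 or more peaks.

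The other ELF3 peaks of WT As3+ lay at the canonical promoter and past the gene. Summits 342 bp upstream and 150 bp downstream of the canonical TSS had folds of 6.17 and 4.16, on 23 and 11 fragments. The first of these holds the AP-1 word shown above. A weaker peak was in coding exon 5, with a fold of 3.94, and a strong one lay 8059 bp past the canonical TSS, downstream of the gene, with a fold of 7.42 on 17 fragments (9.9 to 27.2). In Nrf2 KO control the highest ELF3 peak was again the one near the first base of the gene, with its summit 2194 bp upstream of the canonical TSS, a fold of 6.12 and 12 fragments (6.2 to 21), and the peak downstream of the gene had a fold of 5.18. The remaining 5 had folds from 3.56 to 4.27 on 6 to 10 fragments. One of them, 8315 bp upstream, lies within 2 kb of a start of RNPEP, an aminopeptidase gene, and cannot be assigned to ELF3 by position alone. ELF3-AS1, an antisense transcript, overlaps the upstream sites.

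EHF encodes another epithelium-specific ETS factor, and had no KLF4 peak in any of the 4 libraries. The gene lies on chromosome 11 from 34621093 to 34663288 on the plus strand, with a window of 54.2 kb. The nearest summit to its canonical TSS was 78 kb away in Nrf2 KO control, 182 kb in WT As3+ and 1201 kb in WT control, and in Nrf2 KO As3+ the nearest on the chromosome was 30234 kb away. ELF3, with a shorter window of 21.2 kb, had 5 and 7 peaks in the lists where EHF had 0. A gene without a listed peak is not shown to be unbound, since a site below the threshold of a list is not in it.

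OVOL1 encodes a zinc finger repressor and carried more KLF4 peaks than any other of the 9 genes in Nrf2 KO control. The gene lies on chromosome 11 from 65787063 to 65797214 on the plus strand, and had 0 peaks in WT control, 4 in WT As3+, 13 in Nrf2 KO control and 0 in Nrf2 KO As3+. A number of 13 or more was found at 4.36% of protein-coding genes in Nrf2 KO control, and of 4 or more at 11.5% in WT As3+. The highest WT As3+ peak, printed above, was in intron 1, 5089 bp past the TSS, with a fold of 6.26 on 10 fragments (4.8 to 18.4). Another was in coding exon 4 with a fold of 5.08. The remaining pair, 7210 and 5391 bp upstream with folds of 3.85 and 4.53, lay within 2 kb of a start of AP5B1, an adaptor complex subunit gene upstream of OVOL1, so position alone does not assign them.

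In Nrf2 KO control the OVOL1 peaks covered both flanks and the gene itself. The 3 highest had folds of 7.77, 7.40 and 7.32, at 4629, 6989 and 741 bp upstream of the TSS. The peak at 6989 bp was 1067 bp wide, the widest of all member peaks, with 16 fragments (9.15 to 26), and the peak at 4629 bp was 768 bp wide with 12 fragments. These and a further pair at 5576 and 4179 bp were within 2 kb of a start of AP5B1, 4 of the 13. The peak 741 bp upstream was the nearest to the OVOL1 TSS and had no counterpart in WT As3+, where the nearest summit was the intron 1 site. Weaker peaks 2750 and 2344 bp upstream had folds of 3.30 and 4.18. Intron 1 held peaks at 5273 and 6209 bp with folds of 5.54 and 4.69, and the latter holds the KLF word shown above. The 3′ UTR in exon 4 held another pair with folds of 5.36 and 4.67, and peaks 10814 and 12053 bp past the TSS, beyond the gene, had folds of 6.04 and 3.69.

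TP63, the basal cell factor, had 1 KLF4 peak, in WT As3+ only. The gene lies on chromosome 3 from 189631389 to 189897276 on the plus strand and has 2 groups of start sites. The TA starts lie from 0 to 127 bp past the canonical TSS, and the ΔN starts, used in basal cells, lie from 158270 to 158412 bp past it. The WT As3+ peak, from 189834077 to 189834321 in intron 4, had its summit 202825 bp past the canonical TSS and 44413 bp past the nearest ΔN start, so neither group had a peak within 2 kb. Its fold was 4.08 on 7 fragments (2.81 to 14.4), and by fold it was at percentile 24.7 of its list, below the highest peak of each of the other 5 genes with one. In Nrf2 KO control the window was empty and the nearest summit to the canonical TSS was 75.9 kb upstream of it.

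NKX2-1, FOXA1 and FOXA2, the factors of lung and foregut endoderm, had 12 peaks in Nrf2 KO control and 2 in WT As3+, both of the latter at FOXA1. NKX2-1 occupies chromosome 14 between 36516392 and 36521149 on the minus strand. It had 0 peaks in WT control, WT As3+ and Nrf2 KO As3+ and 3 in Nrf2 KO control. Those 3 had the same fold, 4.69, which corresponds to 6 fragments (2.2 to 13.1) over the lowest background of the list, 0.491. The summits were 106 and 1008 bp upstream of the canonical TSS and 2584 bp past it in coding exon 3, and all were within 2 kb of a start of the overlapping gene SFTA3. The nearest WT As3+ summit was 143 kb away.

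FOXA1 occupies chromosome 14 between 37589552 and 37596059 on the minus strand and had 0 peaks in WT control, 2 in WT As3+, 5 in Nrf2 KO control and 0 in Nrf2 KO As3+. In WT As3+ the summits were 400 and 4586 bp upstream of the canonical TSS, with folds of 4.52 and 3.98 on 7 and 6 fragments. Both had an overlapping peak in Nrf2 KO control, at 386 and 4925 bp, with folds of 6.00 and 5.36 on 8 and 7 fragments. The Nrf2 KO control list added a peak of 890 bp in coding exon 2 with a fold of 5.72, another downstream of the gene with a fold of 6.04, and a weak one 1221 bp upstream with a fold of 3.69 on 5 fragments. The sites at 386, 400 and 1221 bp were within 2 kb of a start of TTC6, whose annotated body overlaps the region upstream of FOXA1.

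FOXA2 held the strongest KLF4 site of Nrf2 KO control among the 9 genes. The gene occupies chromosome 20 between 22580998 and 22585455 on the minus strand and had 4 peaks in Nrf2 KO control and 0 in the other 3 libraries. The strongest, from 22586776 to 22587324 and printed above, had its summit 2558 bp upstream of the canonical TSS, a fold of 9.34 and 13 fragments (6.92 to 22.2) over a background of 0.499. It ranked 661 of 76545 by fold, at percentile 99.1, and FOXA2 ranked 737 of 16226 protein-coding genes by its highest peak. The other 3 were at the start of the gene, 267 bp upstream and 100 and 1104 bp past the TSS, with folds of 4.00, 4.02 and 4.00 on 5 fragments each (1.62 to 11.7). The nearest WT As3+ summit was 16.1 kb from the TSS, on the downstream side and outside the window.

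**Figure D3:**
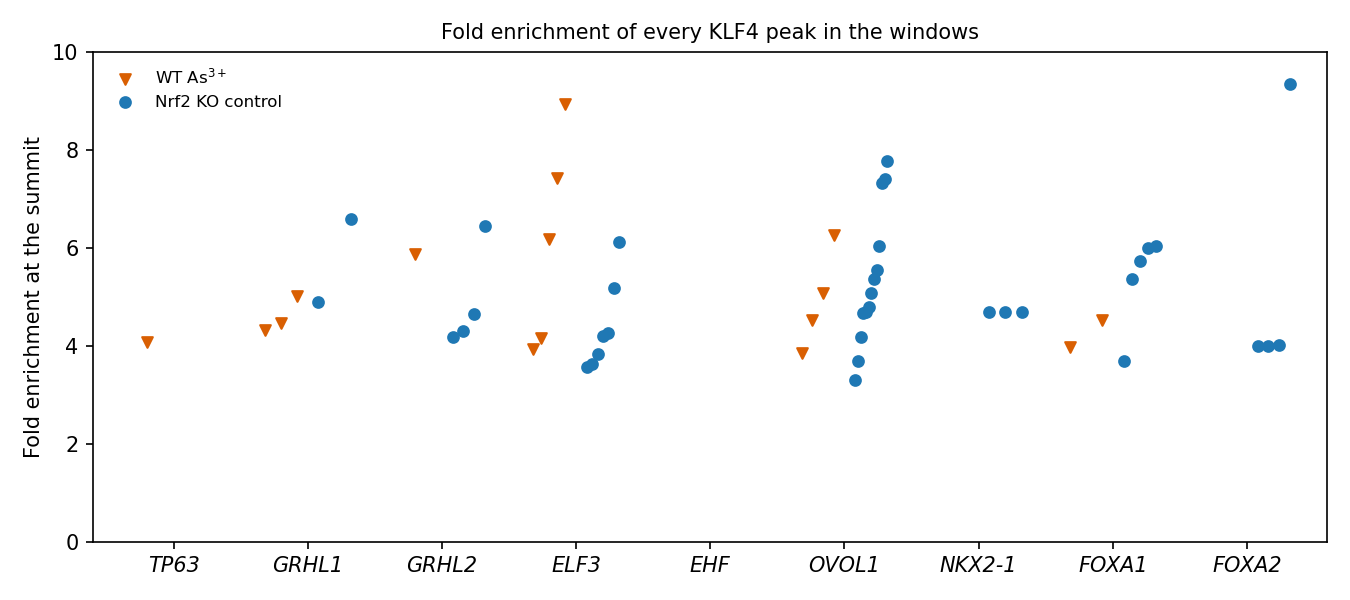
Each point is 1 KLF4 peak, with its fold enrichment (y axis) in the window of each gene (x axis), for WT As3+ and Nrf2 KO control. The highest point of WT As3+ is ELF3 at 8.93 and that of Nrf2 KO control is FOXA2 at 9.34, and EHF has no point.

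The same sites were often listed in WT As3+ and in Nrf2 KO control. Of the 16 WT As3+ peaks at the 9 genes, 10 overlapped a Nrf2 KO control peak by at least 1 bp, which is 62.5%, beside 61.5% of WT As3+ peaks in the windows of protein-coding genes. Of the 38 Nrf2 KO control peaks, 10 overlapped a WT As3+ peak, which is 26.3%, beside 25.5%. Both shares were near those of genes at large. ELF3 and OVOL1 had 3 shared sites each, FOXA1 had 2, and GRHL1 and GRHL2 had 1 each. The summits of a shared site were from 6 bp apart, at GRHL2, to 339 bp apart, at the distal site of FOXA1.

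At the shared sites of ELF3 the fragment numbers were higher in WT As3+, over backgrounds that were higher in WT As3+ at all 10 shared sites. At the strongest ELF3 site they were 32 (21.9 to 45.2) and 12 (6.2 to 21), over backgrounds of 2.7 and 1.12. At the ELF3 promoter site they were 23 (14.6 to 34.5) and 10 (4.8 to 18.4), over 2.89 and 1.87, and downstream of ELF3 they were 17 (9.9 to 27.2) and 10 (4.8 to 18.4), over 1.42 and 1.12. The first of these pairs has intervals that do not overlap, and the other 2 have intervals that do. The intervals are of raw fragments and leave out the unequal backgrounds, so overlap or its lack says nothing of enrichment. The ELF3 sites had the higher fold in WT As3+, 8.93 beside 6.12, 6.17 beside 3.83 and 7.42 beside 5.18. At the FOXA1 and GRHL1 sites the higher fold was in Nrf2 KO control, and at the OVOL1 sites 1 of 3 was higher in WT As3+. The fold adds 1 to fragments and to background. An equal ratio of fragments to background thus gives a lower fold where the background is lower. The libraries were enriched separately, and whether they were brought to 1 size before peak calling is not given. These pairs are therefore given side by side and no difference between conditions is drawn from them.

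**Figure D4:**
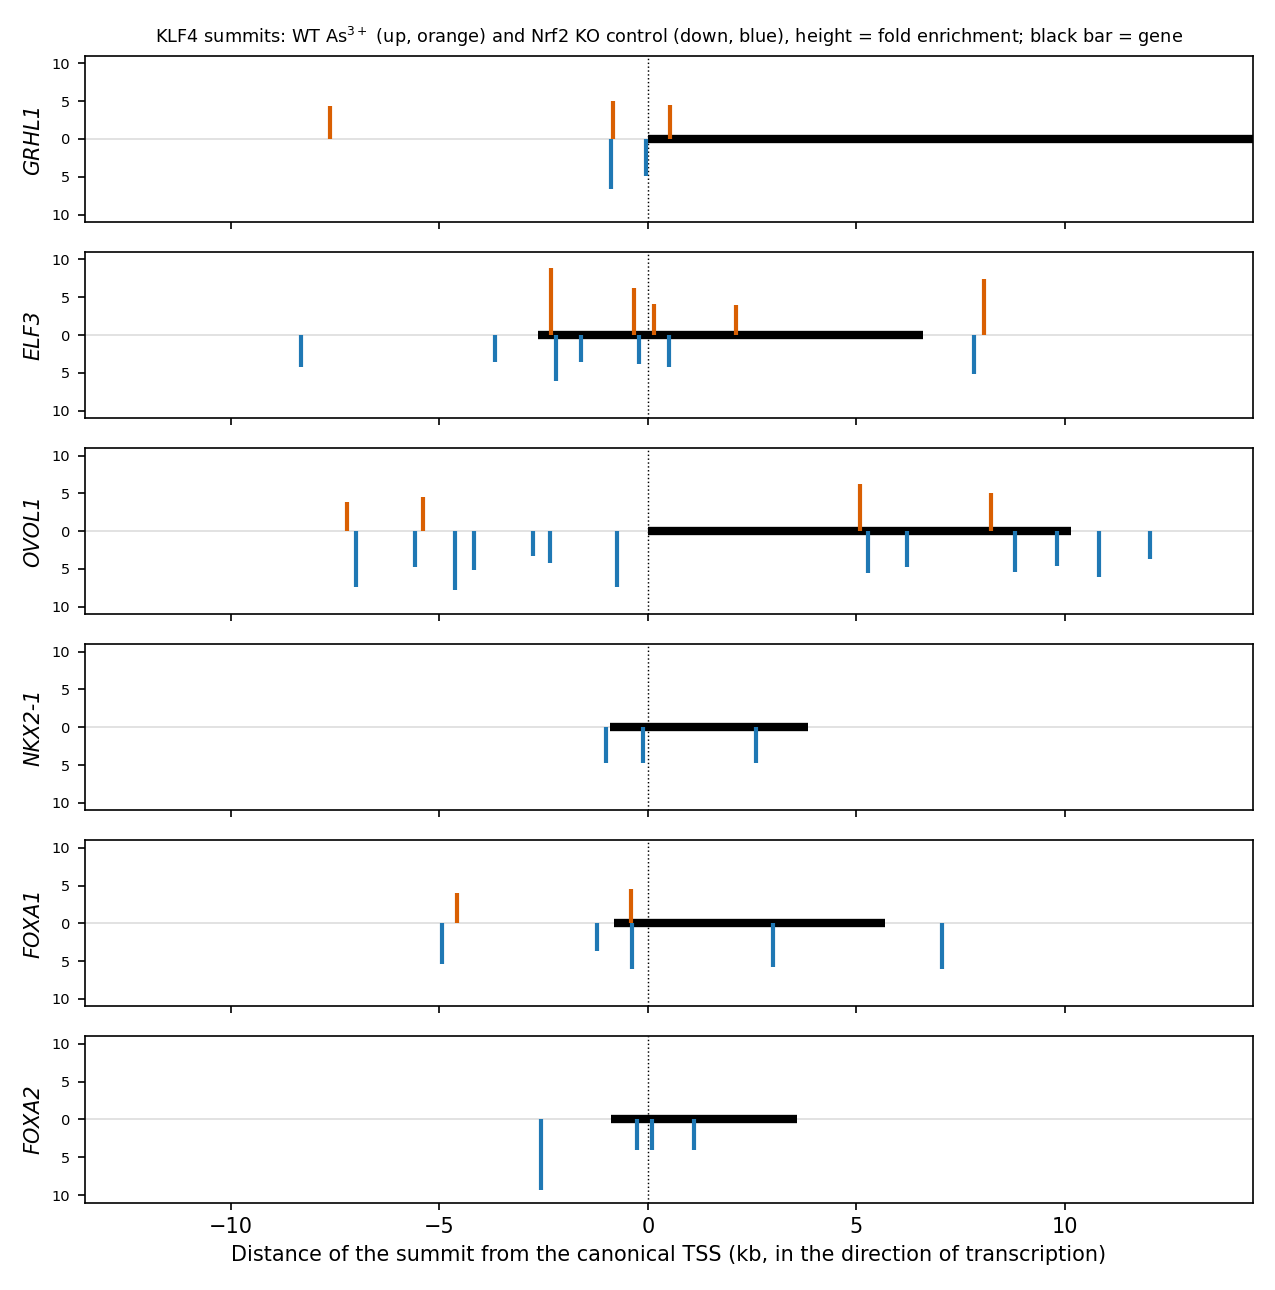
KLF4 summits are drawn by their distance from the canonical TSS in kb (x axis), with a line whose height is the fold enrichment (y axis), upward for WT As3+ and downward for Nrf2 KO control, and the gene as a black bar. TP63 and GRHL2, which have peaks too far inside the genes for this scale, and EHF, which has none, are not drawn. Paired lines mark the shared sites of ELF3, OVOL1, FOXA1 and GRHL1, and NKX2-1 and FOXA2 have lines only below the axis.

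Peaks at these genes lay both near the canonical start and away from it. Of the 16 in WT As3+, 6 lay within 2 kb of the canonical TSS and 10 within 2 kb of any annotated start of the same gene. Of the 38 in Nrf2 KO control, 15 and 20 did. By the canonical transcript, 8 of the WT As3+ peaks were upstream, 4 in introns, 3 in exons and 1 downstream, and 21 of the Nrf2 KO control peaks were upstream, 7 in introns, 6 in exons and 4 downstream. The start of another protein-coding gene lay within 2 kb of 3 and 10 of them.

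In fold enrichment the peaks of the 9 genes had medians near those of their lists. Folds ran from 3.85 to 8.93 with a median of 4.53 in WT As3+, beside a list median of 4.72, and from 3.30 to 9.34 with a median of 4.69 in Nrf2 KO control, which is also the list median. A −log10 q of at least 5 was reached by 5 of 16, or 31.2%, beside 31.9% of the list, and by 10 of 38, or 26.3%, beside 21.1%. The fragment number had a median of 9 in WT As3+ and 7 in Nrf2 KO control, with ranges of 6 to 32 and 5 to 16, so the fold of a single peak here is imprecise.

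The DNA under the peaks was GC-rich, as in the lists as a whole, and held few words of known factors. In windows of 200 bp around the summit the median GC content was 65.5% in WT As3+, from 47% at TP63 to 77% at GRHL1, beside 64.5% for the list, and 64.2% in Nrf2 KO control, beside 61.5%. A KLF word, CCACACCC or CCACGCCC on either strand, was in 0 of 16 windows in WT As3+, beside 10.3% of the list, and in 3 of 38 in Nrf2 KO control, which is 7.89% beside 9.27%. Windows of the same 200 bp centred on the canonical TSS of all protein-coding genes, called promoters here, held one in 5.98%. The GC box CCCCGCCCC, which contains no KLF word, was in 1 of 16 windows, at GRHL1, beside 7.76% of the list, and in 2 of 38, at ELF3 and NKX2-1, beside 4.61%, and in 17.9% of promoters. The AP-1 word TGACTCA was in 1 of 16, at ELF3, beside 4.33%, and in 1 of 38, in intron 3 of GRHL2, beside 2.54%, and in 2.11% of promoters. The grainyhead word AACCNGTT was in 0 of 16 and 0 of 38, beside 0.599% and 0.594% of the lists and 0.849% of promoters.

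The short core CACCC, searched after the longer words had been counted, was in 9 of 16 WT As3+ windows at ELF3, OVOL1 and GRHL1, which is 56.2% beside 62.4% of the list, and in 20 of 38 Nrf2 KO control windows, which is 52.6% beside 61.8%. It lies within CCACACCC, and 47.9% of promoters hold it. At the strongest ELF3 site of WT As3+ there were 4 copies, and at the strongest FOXA2 site of Nrf2 KO control there were 2, of which 1 is in the run printed above. The TP63 window had none, and neither did the GRHL2 window in the 5′ UTR. A match says only that the letters are there.

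Other epithelial factor genes also had peaks in the long lists and none in the short ones. Among 25 further genes of this kind, 18 had a peak in WT As3+ and 23 in Nrf2 KO control. This is 72% and 92%, beside 66.5% and 81.0% of protein-coding genes. In WT control and Nrf2 KO As3+ 0 of the 25 had one, beside 2.51% and 0.439%. All 18 with a peak in WT As3+ also had one in Nrf2 KO control, as did 12813 of the 13314 protein-coding genes with a WT As3+ peak. The 3 with the highest fold in WT As3+ were SOX15 at 7.68, KLF5, a close relative of KLF4, at 6.59, and RFX3, a factor of ciliated cells, at 6.59, all below ELF3. In Nrf2 KO control they were TFAP2C at 10.1, MYB at 7.77 and SOX2, which acts in basal and progenitor cells of the airway, at 7.39, so that TFAP2C alone was above FOXA2. ASCL3 and FOXI1, factors of airway ionocytes, had no peak in any library, like EHF. OVOL3, ELF5, SOX2 and ZNF750 were among those with peaks in Nrf2 KO control and none in WT As3+, as NKX2-1 and FOXA2 were.

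The fold that the fewest listed fragments gave at the lowest background was somewhat higher in the short lists. The fewest fragments of any listed peak, over the lowest background of the list, gave a fold of 3.41 in WT As3+ and 3.35 in Nrf2 KO control. In WT control, 10 fragments gave a fold of 3.79, and all 16 WT As3+ peaks of the 9 genes had a fold at or above that. In Nrf2 KO As3+, 10 fragments gave a fold of 4.17, and 29 of the 38 Nrf2 KO control peaks were at or above it. By the lowest −log10 p of that list instead, 9 fragments would do, with a fold of 3.79. At or above that fold were 33 of the 38. These folds belong to the lowest background and are not the lowest folds in the lists. On more fragments, WT control listed a peak at a fold of 3.23 (21 fragments) and Nrf2 KO As3+ one at 3.77 (20 fragments). The comparison holds only if a site has the same fold in both libraries, and equal enrichment over unequal backgrounds does not give equal folds. These counts therefore do not show which sites the short lists could have held. How well each immunoprecipitation enriched KLF4 sites was not tested.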

How the data were processed

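KLF4 ChIP-seq was analysed in 4 of the 14 samples of the series, with conditions taken from the labels, and the other samples were not analysed here. The authors aligned 75-nt reads with BWA. The study's methods name GRCh38/hg38 or the older human build, without saying which served KLF4, and the peaks were read here as GRCh38. Bcl2fastq 2.17 stands in the submitters' processing notes. The peak caller is not given in the sources used here. Peaks were called per library. The deposited lists give, at each summit, a fold enrichment (a ratio to the local background), −log10 p and −log10 q, all made by the authors, and the deposited score equals 10 times the −log10 q, rounded down. The series has an input sample for KLF4, labelled BEAS-2B with no Nrf2 knockout or As3+ named. Whether the folds were taken against it is not given in the sources used here. A site below the threshold of a list is not in it, and the study's methods describe random sampling of tags to the smallest sample without saying whether peaks were called before or after it.

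Fragments (n) and background (λ) were solved from fold = (n + 1)/(λ + 1) and p as an upper Poisson tail, with a largest misfit in −log10 p of 0.000405, and carry exact Poisson intervals at 95%. No peak reached past a chromosome end of GRCh38, which alone does not settle the build. Genes and transcripts came from GENCODE 44, places follow the Ensembl canonical transcript, and words were searched on both strands in 200 bp windows. Every one of the 9 genes is named. Of the 25 other epithelial factors, those with a peak in either short list, the 3 highest folds in each long list and those without a peak are named. Other protein-coding genes are named where a start lies within 2 kb of a member peak. Genes that are not protein-coding also had starts that near, and most of them are not named. The further genes listed in 1 long list alone were chosen for naming once their values had been seen, and 1 further gene of this kind and 1 further sequence are not reported here. The members and lists were chosen with earlier results of these data known. With 1 library per condition no test was possible.

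Alternatives were a −log10 q of at least 5, the 20000 strongest peaks, other windows, gene starts and overlap rules, all annotated genes as background, and word windows of 100 and 400 bp. A common −log10 p threshold and the core CACCC were added after the data were seen. The steps that assign peaks to genes, find overlaps and solve for fragments were tested on simulated data. Work was done in Python 3.11.15 with pandas 2.3.3, numpy 2.4.6, pysam 0.24.0, scipy 1.17.1 and matplotlib 3.10.9, and in samtools 1.23.1.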

Additional observations from a re-analysis of the deposited data

Results flagged for a closer look

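The number of KLF4 peaks at these genes moved in opposite directions with As3+ in WT and in Nrf2 KO cells. Over the 9 windows it was 16 higher in WT As3+ than in WT control, and the difference of Nrf2 KO As3+ minus Nrf2 KO control was -38. Peaks at 5 of the 9 genes moved in opposite directions in this way, beside 63.5% of protein-coding genes. The differences in WT and in Nrf2 KO cells were 5 and -7 peaks at ELF3, 4 and -13 at OVOL1, 3 and -2 at GRHL1, 2 and -5 at FOXA1, and 1 and -4 at GRHL2. With 1 library per condition the difference between WT and Nrf2 KO cells was not tested. The full lists differ in the same directions, with 751 and 29870 peaks in WT control and WT As3+ and 76545 and 130 in Nrf2 KO control and Nrf2 KO As3+.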

How the results depend on the processing

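Of 77 alternative values for 16 results, 59 stayed near the reported value and 18 did not. The limit for near was wide, so that 6 genes with a peak in WT As3+ falling to 4 counted as near. Many of the 59 are a 0 in WT control or Nrf2 KO As3+ that most alternatives could not change, since they only remove peaks or narrow windows. The number 59 is therefore no measure of stability. At a stricter −log10 q of 5 or more, 3 of 9 genes had a peak in WT As3+ (GRHL2, ELF3 and OVOL1), beside 38.2% of protein-coding genes. The same 3 had one there and none in WT control. In Nrf2 KO control 6 of 9 genes had a peak at this setting, beside 51%. The windows held 5 peaks in WT As3+ and 10 in Nrf2 KO control, of which 1 was shared. With the 20000 strongest peaks of each list they held 9 and 12, at 4 and 6 genes, beside 57.6% and 56.1% of protein-coding genes. Within 2 kb of the canonical TSS they held 6 and 15, and no background was worked out for that window. Requiring 50% of each peak in common left 5 shared sites. With windows of 400 bp a KLF word was in 1 of 16 WT As3+ peaks and 5 of 38 Nrf2 KO control peaks. This is 6.25% and 13.2%, beside 16.9% and 16.2% of the lists. With the usual 200 bp the core CACCC was in 9 and 20, beside 62.4% and 61.8% of the lists. Over all annotated genes the background was 1.42% in WT control, 36.5% in WT As3+, 51% in Nrf2 KO control and 0.23% in Nrf2 KO As3+. At a common −log10 p of 5.03 the windows held 0, 15, 30 and 0 peaks. WT control and Nrf2 KO As3+ had 0 peaks in the 9 windows under every alternative run, most of which could not add a peak. No paired analysis was possible because each condition has 1 library. Single peaks rest on 5 to 32 fragments, which limits what a fold can show, and library depth was visible only in these fragments and their backgrounds.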
